A study of Caenorhabditis elegans with 3 samples.

Results

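The splicing factor and RNA-binding protein genes of Caenorhabditis elegans were taken as the protein-coding genes of the WBcel235 annotation whose symbols begin with rsp-, snr-, prp-, rbm-, rnp-, uaf- or sfa-. They are 53 of 19985 protein-coding genes: 13 prp-, 13 rbm-, 9 rnp-, 8 rsp-, 7 snr- and 2 uaf- genes, and 1 sfa- gene. The list was read in chromatin immunoprecipitation and sequencing (ChIP-seq) of the zinc finger protein R02D3.7, the product of rcat-1, from whole L4 larvae of mixed sex. All 3 samples are biological replicates of 1 group, strain OP218, which is mutant for unc-119 (allele ed3, chromosome III) and carries the insertion wgIs218 with R02D3.7 fused to GFP. Replicates 1 and 2 are labelled with a stock centre as source and a size range for the fragments, while replicate 3 is labelled with the laboratory as source and microtip sonication. The tagged protein comes from a transgene, the chromatin comes from all tissues of the animal together, and no sample of another condition or stage was analysed here.

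Introns are removed from pre-mRNA by the spliceosome, which is built from small nuclear RNA-protein particles (snRNPs). The Sm proteins, encoded by the snr- genes, form a ring on the small nuclear RNAs, and the prp- genes encode homologues of yeast pre-mRNA processing factors. SF1 (sfa-1) and both subunits of U2AF (uaf-1 and uaf-2) recognise the branch point and the 3' end of the intron. SR proteins (rsp-) bind exons and promote splicing at nearby sites, and the rbm- and rnp- genes encode a more varied set of proteins with RNA recognition motifs. In C. elegans many genes lie in operons, whose joint transcripts are cut apart by trans-splicing, and these factors are used in nearly every tissue.

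A gene was called bound in a list when a peak summit lay from 1000 bp upstream to 200 bp downstream of one of its transcript starts. Of the 53 members, 2 were bound in the authors' thresholded list, rbm-5 and rnp-5, and 30 were bound in the longer pooled list. The sequences at the summits that the results below turn on are printed first, so that the thresholded site of rnp-5 can be set beside the weaker ones. Each is the top strand of WBcel235 (ce11), 5' to 3', from 50 bases before to 50 bases after the pooled summit, read from the RefSeq assembly. Capitals mark CGTAAATC or its first 6 letters, CGTAAA, on either strand, where GATTTACG is the reverse complement of the 8 letters. The windows lie at chrIII:854109-854209 for rnp-5, chrIV:1012511-1012611 for rbm-39, chrII:11453136-11453236 for the peak between rsp-1 and rsp-2, chrIII:9521818-9521918 for prp-40, chrII:6489952-6490052 for the peak between rsp-5 and snr-3, and chrIV:17087413-17087513 for snr-1.
rnp-5: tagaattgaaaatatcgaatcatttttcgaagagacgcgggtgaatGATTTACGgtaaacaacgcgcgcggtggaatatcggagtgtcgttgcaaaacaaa
rbm-39: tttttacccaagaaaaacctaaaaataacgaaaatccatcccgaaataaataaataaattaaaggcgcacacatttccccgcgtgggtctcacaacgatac
rsp-1 and rsp-2: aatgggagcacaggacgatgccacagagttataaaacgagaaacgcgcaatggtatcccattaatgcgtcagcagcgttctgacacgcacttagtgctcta
prp-40: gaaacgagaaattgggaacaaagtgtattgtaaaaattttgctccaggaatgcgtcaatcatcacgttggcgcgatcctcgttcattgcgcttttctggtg
rsp-5 and snr-3: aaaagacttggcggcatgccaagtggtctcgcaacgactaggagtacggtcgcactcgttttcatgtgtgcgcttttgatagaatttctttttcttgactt
snr-1: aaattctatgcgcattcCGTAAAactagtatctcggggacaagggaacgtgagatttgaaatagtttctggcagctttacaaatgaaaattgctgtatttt

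The 8 letters CGTAAATC were looked for because earlier results on these data had pointed to them. They lay within 50 bp of the summit at 1 of the 2 thresholded member peaks, that of rnp-5, where the match starts 4 bp before the summit and reads on the bottom strand. Over all nuclear thresholded peaks the 8 letters were present at 149 of 364 (40.9%). The rbm-5 peak held only the 6 letters CGTAAA, 46 bp before its summit, and CGTAAA occurred at 175 of the 364 (48.1%). None of the 35 weaker pooled summits in member windows held CGTAAATC, where 249 of 11143 weaker nuclear pooled summits did (2.23%). CGTAAA was found at 2 of those 35 (5.71%), the strongest peak of snr-1 and the weaker peak of prp-40, and at 682 of the 11143 (6.12%). At a background share of 2.23%, a count of 0 among 35 summits cannot be told from it, and these matches describe letters and not occupied sites.

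Members were bound more often than protein-coding genes in general in each of the 5 lists, by a margin within the counting interval in the thresholded list and outside it in the others. In the thresholded list 2 of 53 members were bound (3.77%, exact 95% Clopper-Pearson interval 0.460% to 13.0%), against 2.05% of all protein-coding genes, which lies inside that interval. In the pooled list 30 of 53 were bound (56.6%, interval 42.3% to 70.2%), against 21.6% of all protein-coding genes. The intervals cover counting error over genes taken as independent, which neighbouring genes that share a peak are not. No test of the list was made, because there is 1 group and the genes were chosen with results of these data known.

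**Figure D1:**
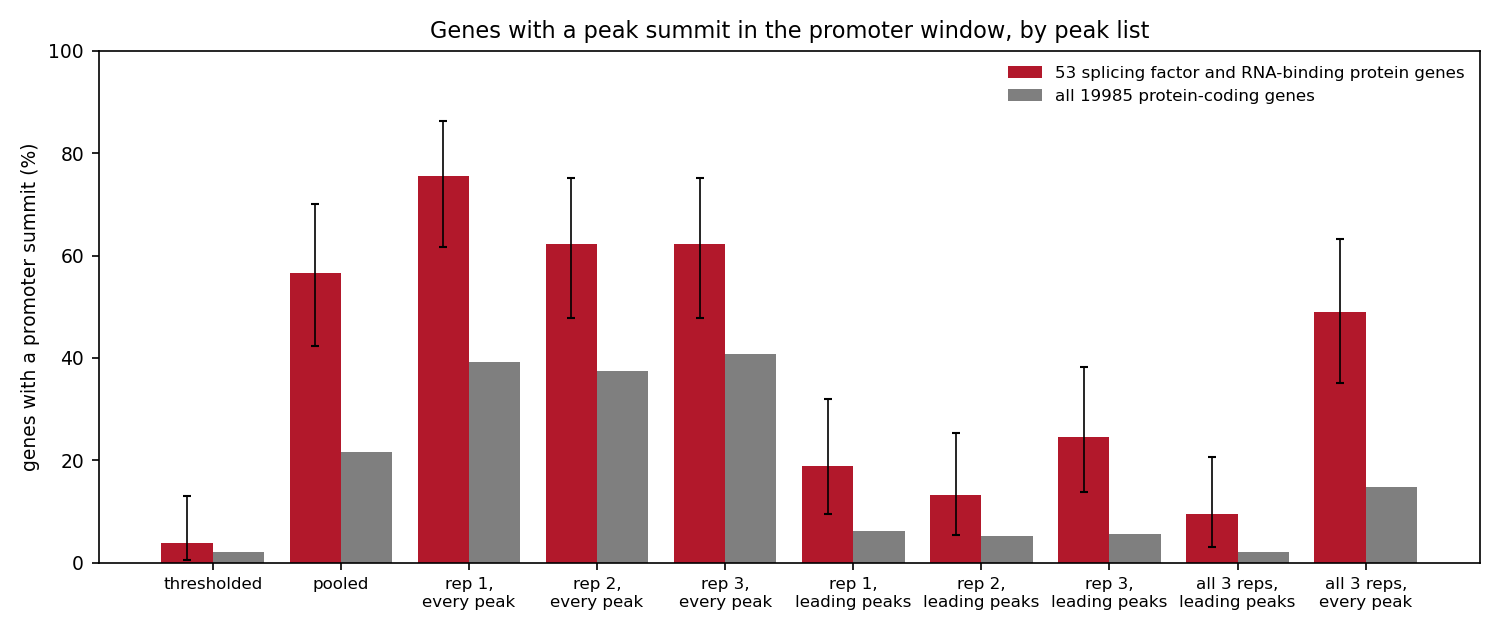
Percentage of the 53 splicing factor and RNA-binding protein genes (red, with exact 95% intervals) and of all 19985 protein-coding genes (grey) with a peak summit in the promoter window, for each peak list. "Leading peaks" are the strongest peaks of a replicate, 5 times as many as the thresholded list holds. The red bar is above the grey one in each list, and the grey bar lies inside the interval in the thresholded list alone (3.77% and 2.05%).

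The replicate lists hold many weak peaks, and each was read whole and by its leading peaks, 5 times as many as the 390 thresholded ones. With every peak used, 40 members were bound in replicate 1 (75.5%, all genes 39.3%), 33 in replicate 2 (62.3%, all genes 37.4%) and 33 in replicate 3 (62.3%, all genes 40.8%). With the leading peaks, 10 were bound in replicate 1 (18.9%, all genes 6.26%), 7 in replicate 2 (13.2%, all genes 5.31%) and 13 in replicate 3 (24.5%, all genes 5.55%). The replicates thus differed by up to 6 members in the leading peaks, and in each of them the members' share was higher than that of all genes. Requiring a leading peak in all 3 replicates left 5 members (9.43%, all genes 2.10%): rsp-1, rsp-2, rbm-5, rbm-39 and rnp-5. With every peak, 26 members had a summit in all 3 replicates (49.1%, all genes 14.9%). A summit in at least 1 replicate was present at 47 members (88.7%), but also at 66.9% of all genes, and adding the pooled list brought the background to 67.0% and left the members at 47.

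As weaker pooled peaks were added, the members' share pulled away from that of all genes in percentage points, but not steadily as a ratio. Among the 1000 strongest pooled peaks, 8 members had a summit in the window (15.1%), against 3.91% of all protein-coding genes. The 2000 strongest reached 16 members (30.2%) and 6.44% of all genes, and the 5000 strongest 23 members (43.4%) and 12.2% of all genes. With all pooled peaks the shares were 56.6% and 21.6%, a ratio of 2.62, which is lower than at 1000, 2000 or 5000 peaks. The median rank of the strongest pooled peak was 1866 over the 30 bound members and 4128 over the 4316 bound genes, so member peaks lay higher in the list. Of the 30, 9 members had a pooled peak with a deposited q of at most 0.05 (17.0% of the 53), against 4.43% of all protein-coding genes. Genes of the small ribosomal subunit (rps-, 31 genes) stood above the members throughout, with 10 in the thresholded list (32.3%) and 28 in the pooled list (90.3%). Of 25 eif- genes for translation initiation factors, 3 were bound in the thresholded list and 11 in the pooled list (44%). Of 8 exos- genes for the RNA exosome 1 and 4 were, and the shares of all genes were 2.05% and 21.6%.

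**Figure D2:**
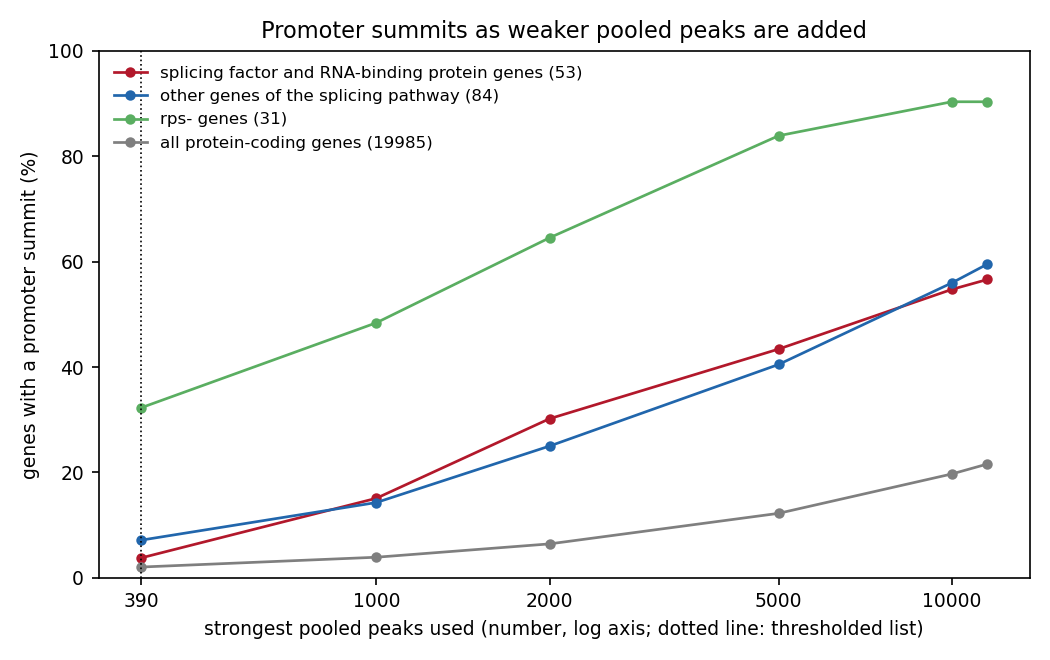
Percentage of genes with a summit in the promoter window (vertical axis) when only the strongest pooled peaks are used (horizontal axis, log scale), for the members, 84 other genes of the splicing pathway, the rps- genes and all protein-coding genes. Members and the other pathway genes run close together, from 3.77% and 7.14% at 390 peaks to 56.6% and 59.5% with all pooled peaks, below the rps- genes and above all protein-coding genes.

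The strongest member peak belonged to rbm-5 (WBGene00020346), whose human homologue RBM5 regulates alternative splicing. The peak spans chrI:6215290-6215863 with a pooled signal of 299, which is rank 21 of 11533, and its summit lies 141 bp upstream of the rbm-5 start. Its signal was 135 in replicate 1, 86.1 in replicate 2 and 90.9 in replicate 3, which put it at ranks 17, 15 and 26, so all 3 replicates hold it among their strongest peaks. Signals are the authors' values for a peak and are not on 1 scale between lists, so ranks are used to set lists side by side. The summit falls in the annotated 3' UTR of T08B2.15, the gene just upstream on the same strand, whose end overlaps the start of rbm-5. It is also in the window of fars-1, a gene for phenylalanyl-tRNA synthetase, at 901 bp upstream, and rbm-5 has the nearer start.

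The other thresholded peak is shared by rnp-5 (WBGene00004388), the homologue of RNPS1, a protein that couples splicing to the exon junction complex, and tag-51. It spans chrIII:853944-854373 with a pooled signal of 76.3 (rank 166), and its summit is 250 bp upstream of rnp-5 but only 62 bp upstream of tag-51. The ranks were 214 in replicate 1, 89 in replicate 2 and 218 in replicate 3, with signals of 26.5, 32.8 and 19.0. All 3 replicates thus placed it well inside their leading peaks, and the sequence printed above holds its CGTAAATC match almost at the summit. When each summit was given to the nearest start alone, tag-51 took this peak and rbm-5 was the single member left in the thresholded list.

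Several members lay just outside the threshold, whose weakest peak has a signal of 35.6. The nearest was rbm-39, the homologue of human RBM39 (CAPER alpha), a splicing factor and coactivator, at rank 399 with a signal of 35.2 and a summit 63 bp upstream. Its ranks in replicates 1, 2 and 3 were 547, 892 and 1499, and ranks given below as a set of 3 follow the same order. A replicate's rank for a pooled peak is that of its strongest peak with the summit inside that pooled peak, and summits elsewhere in the same promoter window are left out. Next came rsp-1 and rsp-2, a pair of SR protein genes that face away from each other and share 1 peak at rank 460 (signal 32.6), 176 bp upstream of rsp-1 and 231 bp upstream of rsp-2. That peak had rank 1201 in replicate 1, 375 in replicate 2 and 770 in replicate 3. It lies in the window of no other protein-coding gene, so it was a site between members alone.

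Among the SR protein genes, 7 of 8 were bound in the pooled list (all genes 21.6%). All 8 had a summit in replicate 2 (all genes 37.4%) and in replicate 3 (all genes 40.8%). Besides rsp-1 and rsp-2 those with a pooled peak were rsp-5 (rank 1577), rsp-6, the homologue of SRp20 (rank 1835), and rsp-8 (rank 2753). The others were rsp-3, the homologue of SF2/ASF (rank 4386), and rsp-4, the homologue of SC35 (rank 8840). Apart from the shared peak of rsp-1 and rsp-2 no rsp- gene had leading peaks in all 3 replicates. The most even of them was rsp-6, with ranks of 2556, 3496 and 2880 in replicates 1, 2 and 3, and a summit 219 bp upstream. In contrast rsp-3 had ranks of 8402, 5866 and 21257, and its pooled summit lies 837 bp upstream inside a coding exon of the neighbour spin-4. The 8th gene, rsp-7, had no pooled peak, and its strongest window summits had ranks of 11524, 16099 and 7303.

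The Sm protein genes were bound at 5 of 7 in the pooled list (all genes 21.6%), and none reached the thresholded list (all genes 2.05%). The strongest was snr-6, for SmE, at rank 1057 with a signal of 22.8 and a summit 248 bp upstream. It had rank 692 in replicate 1 and 499 in replicate 3, and replicate 2 had no summit inside it. The same held for snr-2, for SmB, at pooled rank 1627, with rank 1425 in replicate 1, rank 759 in replicate 3 and no summit of replicate 2. In both windows replicate 2 had a weak summit outside the pooled peak. A single peak at rank 1577 lies between snr-3, for SmD1, and rsp-5, 241 bp and 163 bp upstream of them, and had rank 6326 in replicate 2, rank 1083 in replicate 3 and no summit in replicate 1. snr-4, for SmD2, was at rank 1768 (2172, 6566 and 1619 in the replicates), with a summit 567 bp upstream and 172 bp past the start of a small nuclear RNA gene. snr-1, for SmD3, was at rank 3592, where snx-13 has the nearer start at 25 bp. The genes for SmF and SmG, snr-5 and snr-7, had a summit in 1 replicate each, at rank 5448 in replicate 2 and rank 11511 in replicate 3.

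Of the 13 prp- genes, 7 were bound in the pooled list (all genes 21.6%). The leading one was prp-31, for a protein of the U4/U6 snRNP that joins the tri-snRNP, at rank 572 (signal 29.0) and 191 bp upstream, in a window shared with the anaphase-promoting complex gene mat-1. Its rank was 399 in replicate 3 but 3577 in replicate 1 and 4478 in replicate 2. A U1 snRNP factor, prp-40, was at rank 830 (signal 24.9, with ranks of 3360, 3916 and 1436) and shared its window with clu-1. prp-19 encodes the ubiquitin ligase of the complex named after it; its peak was at rank 1409, with rank 580 in replicate 1, rank 4593 in replicate 3 and no summit of replicate 2. That summit lies 641 bp upstream of prp-19 and 34 bp upstream of K10D2.5. prp-39, for another U1 snRNP factor, was bound at rank 2074 inside its own intron, with rank 4871 in replicate 1, rank 23018 in replicate 2 and no summit of replicate 3 inside the peak. prp-4, for a U4/U6 snRNP protein (rank 4811), prp-8, for the core protein of the U5 snRNP (rank 6275), and prp-17, for a factor of the second splicing step (rank 10391), were weaker, and prp-8 had rank 2564 in replicate 2, rank 7412 in replicate 3 and no summit of replicate 1 inside the peak.

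The rbm- genes were uneven, with 7 of 13 bound in the pooled list (all genes 21.6%) and ranks between 21 and 9527. After rbm-5 and rbm-39 came rbm-22, whose human homologue lies in the activated spliceosome, at rank 1897 with ranks of 12485, 9278 and 1544. Its summit, 219 bp upstream, falls in the 3' UTR of hars-1, the gene for histidyl-tRNA synthetase that ends 117 bp before rbm-22. rbm-26 was at rank 3733 with no summit in replicate 3, and rbm-3.1 at rank 3809 with a summit of replicate 1 alone inside the peak, at rank 1464. rbm-25, whose human homologue associates with the U1 snRNP, was at rank 8530, and rbm-42 at rank 9527. rbm-3.1 and rbm-3.2 lie in tandem on 1 strand, so their windows lie close together.

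Among the rnp- genes 3 of 9 were bound in the pooled list (all genes 21.6%). Counts for a single prefix rest on few genes and were given no interval. The bound rnp- genes were rnp-5, rnp-8, for a partner of the poly(A) polymerase GLD-2 in oogenesis (rank 6556), and rnp-1 (rank 8507). The rnp-1 summit, 938 bp upstream, lies 184 bp upstream of dpy-30. rnp-2 and rnp-3, for homologues of the A protein of the U1 snRNP and the B'' protein of the U2 snRNP, and rnp-4, for the exon junction protein Y14, had summits in replicate lists only, at ranks from 4889 to 25061. uaf-2, the small subunit of U2AF, was at rank 915 with a signal of 24.0 and a summit 124 bp upstream. It had rank 509 in replicate 2, 2813 in replicate 1 and 11558 in replicate 3, while the large subunit gene uaf-1 had no pooled promoter peak, and its strongest window summits had ranks of 7511, 20234 and 13798. sfa-1 had no summit in its window in any list, and neither had prp-6, prp-18, rbm-34, rnp-7 and rnp-9, which makes 6 of 53. The remaining 47 members (88.7%) had a summit in at least 1 list, against 67.0% of all protein-coding genes. Of those 47, 17 had summits in replicate lists but not in the pooled list.

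**Figure D3:**
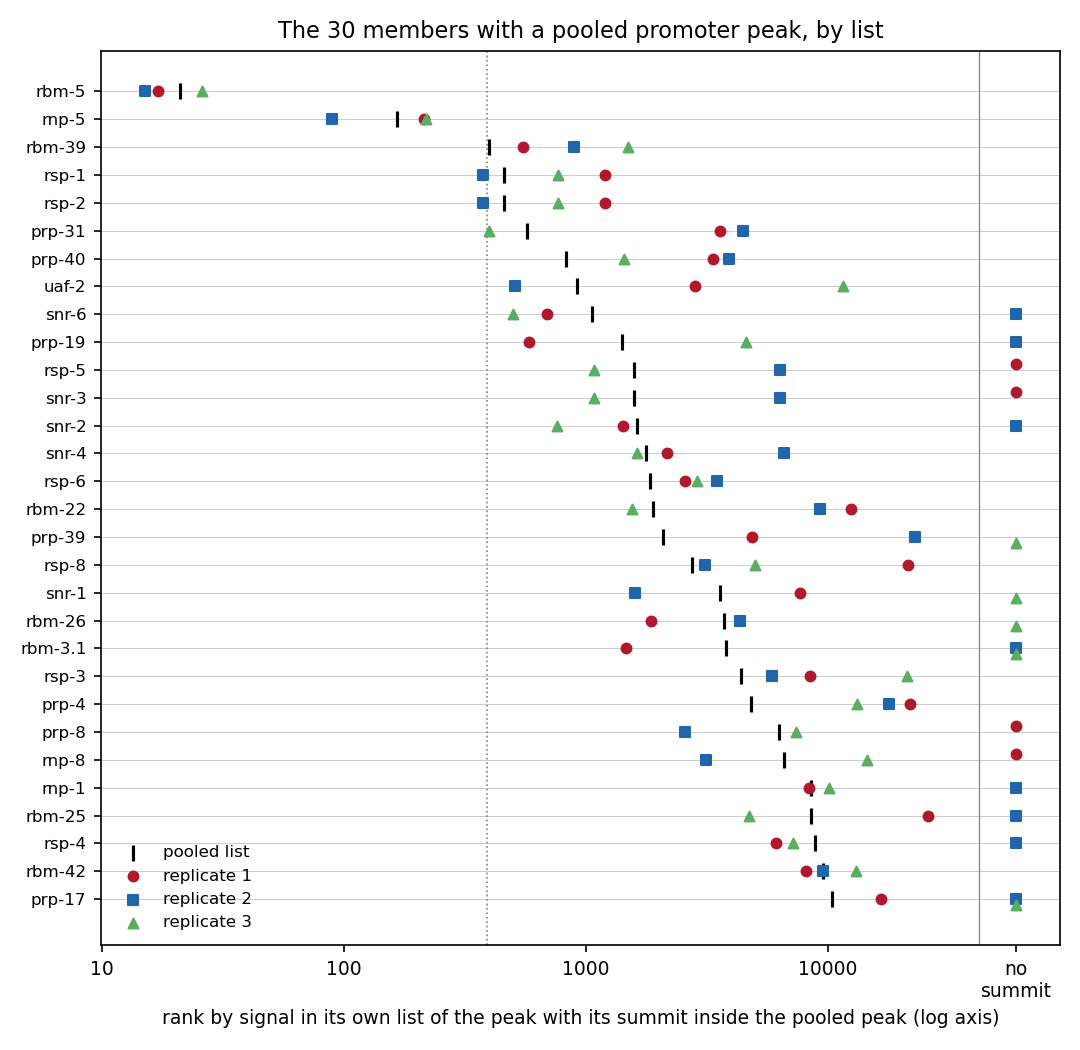
Rank by signal (horizontal axis, log scale, 1 is the strongest peak) of the strongest pooled promoter peak of each of the 30 bound members (bar) and of the strongest peak of replicates 1 (circle), 2 (square) and 3 (triangle) with its summit inside that pooled peak. Symbols at the right edge stand for a replicate with no summit inside it, and the dotted line marks rank 390. All 3 replicates are present for 15 members, close together for rbm-5, rsp-6, prp-4 and rbm-42 and far apart for uaf-2 and prp-31.

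The replicates met at some member peaks and missed each other at others. Every bound member from rbm-5 (pooled rank 21) to uaf-2 (rank 915) had a summit of all 3 replicates inside its peak. Among the weaker members, from snr-6 (rank 1057) down, some had all 3 and others lacked at least 1. Where all 3 were present, the spread of their ranks followed no plain order by strength. All 3 replicates had a summit inside the strongest pooled peak of 15 of the 30 bound members, and 13 members had summits of 2 replicates. The other 2 members, rbm-3.1 and prp-17, had a summit of replicate 1 alone. These counts were not made over all bound genes. Replicate 1 was present at 26 members, replicate 2 at 22 and replicate 3 at 25. Over the 15, the ratio of the weakest to the strongest rank was 1.73 for rbm-5, 2.45 for rnp-5 and 2.74 for rbm-39, but 11.2 for prp-31 and 22.7 for uaf-2. Among weaker peaks the ratio was 1.37 for rsp-6, 1.67 for prp-4, 1.61 for rbm-42, 8.09 for rbm-22 and 6.88 for rsp-8. The lists end at 27624, 28357 and 30000 peaks, which caps the ratio of a weak peak. The low ratios of prp-4 (ranks 21898, 17940 and 13143) and rbm-42 thus cannot be set beside that of rbm-5. Members that lack a replicate have no ratio. When the strongest summit anywhere in the window is taken instead, it lies outside the pooled peak for 5 members in replicate 1, 7 in replicate 2 and 4 in replicate 3. Spearman correlations of the ranks of these strongest window summits were 0.41 between replicates 1 and 2 (28 members), 0.62 between 1 and 3 (29 members) and 0.32 between 2 and 3 (28 members). Over all genes bound in both lists of a pair they were 0.42, 0.43 and 0.41. These correlations are descriptions across genes within the same libraries, where neighbours share peaks. All 37 pooled peaks in member windows contained a summit of at least 1 replicate, and 18 of them (48.6%) contained one of each replicate, as did 29.1% of the pooled peaks in windows of all protein-coding genes. With leading peaks alone 4 of the 37 (10.8%) had all 3 replicates, and 6.35% of those of all genes did. The pooled list was called on the same reads as the replicate lists, so this support is not independent of it. The strongest pooled peaks of members also ranked higher (median 1866, all bound genes 4128), and these shares were not matched for strength.

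By distance from the start, the summits sat close to where promoter summits of other genes sat. The median position of the strongest pooled summit was 249 bp upstream of the nearest member start, and 278 bp upstream over all bound genes. Upstream summits made up 28 of the 30 (93.3%, all bound genes 85.7%). Within 300 bp of the start lay 17 of the 30 (56.7%, all bound genes 52.5%). Distance is taken to the nearest of a gene's starts. The summits of rbm-25 and rnp-8 thus count as upstream although they lie in introns of their own genes. The 2 summits past the start were those of prp-39 and rsp-4, at 194 bp and 54 bp. By annotation, 18 of the 28 distinct peaks behind the 30 members were intergenic. The summit was in an intron at 4, in a coding exon at 3 and in a 3' UTR at 3. These classes were not counted over all genes. The intron summits of prp-39, rbm-25 and rnp-8 lie in the member's own gene, and that of rbm-42 in grwd-1. The rbm-3.1 summit lies in the 3' UTR of another member, rbm-3.2. The peaks of the 9 strongest members, from rbm-5 to snr-6 in rank, lay 63 to 250 bp upstream, and summits farther than 500 bp upstream were seen at 10 members, with a highest signal of 20.4 (prp-19).

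**Figure D4:**
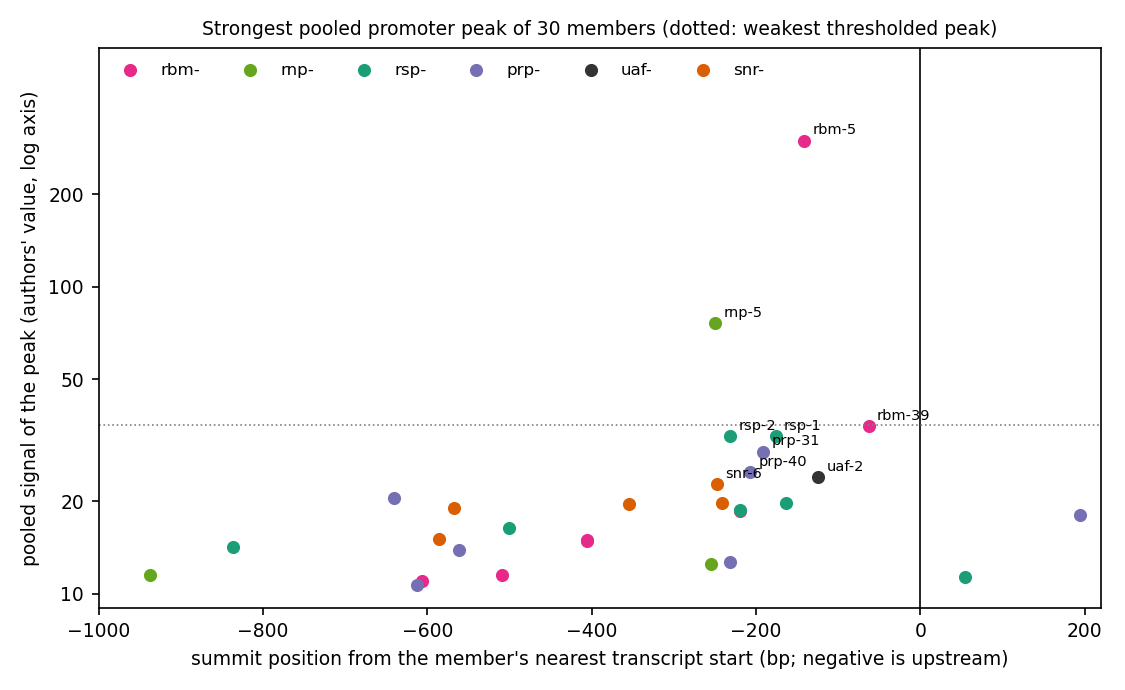
Position of the strongest pooled summit relative to the member's nearest transcript start (horizontal axis, bp, negative is upstream) and the authors' pooled signal of the peak (vertical axis, log scale) for the 30 bound members, coloured by prefix. The dotted line is the weakest thresholded signal, 35.6, and the points above it are rbm-5 (299) and rnp-5 (76.3).

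A summit in a compact genome often serves several windows, and 19 of the 30 bound members shared their strongest pooled peak with another protein-coding gene (63.3%), against 33.8% of all bound genes. For 22 of the 30 the member's own start was the nearest (73.3%, all bound genes 82.7%), and for 8 another gene's was. Divergent neighbours, whose start lies within 1000 bp on the other strand, were present at 27 of 53 members (50.9%) and at 20.3% of protein-coding genes. Among genes with such a neighbour 18 of 27 members were bound in the pooled list (66.7%) and 1301 of 4062 genes (32.0%). With an upstream gene ending within 500 bp on the same strand the counts were 8 of 16 members (50%) and 954 of 4010 genes (23.8%), and for the remaining genes 4 of 10 (40%) and 2061 of 11913 (17.3%). The members' share was thus higher within each arrangement, and the share of all genes differed between arrangements too. Genes with more starts have wider windows. Among genes with 1 start, 14 of 32 members were bound (43.8%) and 17.6% of all such genes.

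**Figure D5:**
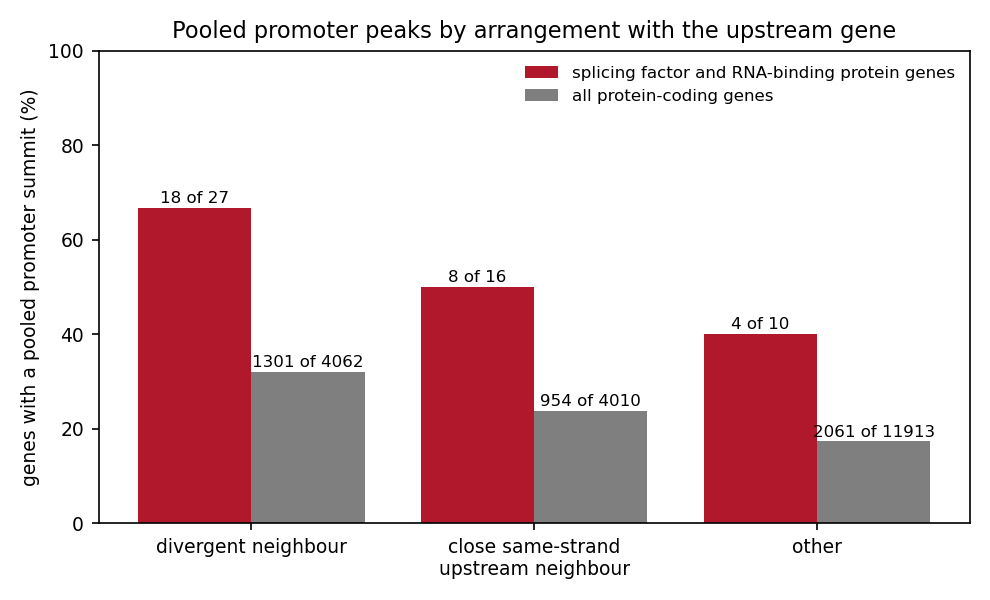
Percentage of members (red) and of all protein-coding genes (grey) bound in the pooled list, by arrangement with the upstream gene, with counts above the bars. Members range from 66.7% with a divergent neighbour to 40% in the remaining genes, and all genes from 32.0% to 17.3%.

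Genes in close same-strand runs can be transcribed from the start of the first gene, and 16 members lie downstream in such a run. The first gene of the run was bound in the pooled list for 9 of the 16 (56.2%), against 1266 of the 4010 protein-coding genes that lie in such a run (31.6%). The member's own window was bound for 8 of the 16. The strongest of these first-gene peaks belonged to hmgs-1, the HMG-CoA synthase gene 90 bp upstream of prp-39, with a thresholded peak at rank 5 (signal 519). Members without a pooled peak of their own but with one at the first gene were prp-38 behind plrg-1 (rank 439), rnp-7, for the U1 70K protein, behind syf-2 (rank 785), prp-3 behind smrd-1 (rank 1370) and rbm-17 behind F58B3.6 (rank 2077). plrg-1 and syf-2 are splicing factor genes themselves. Whether these runs are operons was not tested, since runs were defined from gene positions alone.

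Peaks inside members but outside their promoter windows numbered 28 pooled summits in 18 of 53 members (34.0%). Of all protein-coding genes 19.5% had such a summit. Some of the 28 lie in the promoter window of another gene. The rank 3809 summit in rbm-3.2 is also the promoter peak of rbm-3.1 given above. None of the 28 was in the thresholded list. The strongest lay in rbm-34, at rank 415 with a signal of 34.5, a summit in each replicate (ranks 1642, 4437 and 362) and a position 1287 bp into the gene. It sits 2 bp upstream of the small nucleolar RNA gene F11A10.9, which lies within rbm-34, and rbm-34 itself had no promoter summit in any list. A peak there is not counted among the bound members. In rsp-5 a peak at rank 605 (signal 28.3) lay 23 bp before the end of the gene. The long gene uaf-1 held 3 pooled summits, the strongest at rank 2556.

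Other genes of the pathway gave a picture close to that of the members. Of 88 symbols listed by their known roles, 84 matched a protein-coding gene. In the thresholded list 6 of the 84 were bound (7.14%, all genes 2.05%) and in the pooled list 50 (59.5%, all genes 21.6%). The strongest was swp-1, homologue of the fly splicing regulator suppressor of white-apricot, at rank 13 but with the summit 911 bp upstream. The Sm-like genes lsm-5 (rank 79) and lsm-3 (rank 260), the helicase gene ddx-15 (rank 168), the hnRNP gene sqd-1 (rank 202) and syf-1 (rank 274), for a protein of the Prp19 complex, were the others. All 7 listed lsm- genes, whose products belong to the rings on U6 RNA and in mRNA decay, were bound in the pooled list. So were 9 of 13 genes in a class listed as tissue-specific regulators of alternative splicing, which includes tiar-1, tiar-2 and sup-46. In that class asd-2, mbl-1, unc-75 and sup-12 had no pooled promoter peak. Also bound were 8 of 13 hnRNP genes and 4 of 5 genes for SR-related proteins and the SR kinase. The counts were 13 of 25 for genes listed as tri-snRNP and helicase genes and 2 of 6 for other U2 snRNP and branch point factors. A mixed class of cap binding, exon junction, RNA export and mRNA 3' end formation genes had 7 of 15 bound. Of these, cpsf-1, cpf-1, cpf-2, suf-1 and pabp-2 belong to 3' end formation, and mag-1 and hel-1 to the other kinds.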

How the data were processed

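ChIP-seq peaks of 3 samples, 1 group, were read from the 5 deposited ce11 lists: thresholded, pooled, and replicates 1, 2 and 3. Per the deposited description files, the authors called peaks on each replicate and on the 3 together, against 1 control alignment. The sources used here name neither the aligner nor the caller's settings. The signal of each peak is the authors' deposited value with no stated scale, and ranks were taken within a list. The deposited −log10 q was used for 1 alternative at q of at most 0.05. The 390 thresholded peaks are the 390 strongest pooled ones by summit. No read counts are held in these lists, so depth is unknown.

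Genes and starts came from Ensembl release 115 and sequences from RefSeq WBcel235. A replicate's leading peaks were its 1950 strongest, 5 times 390. Python 3.11.15, numpy 2.4.6, pandas 2.3.3 and scipy 1.17.1 were used, and the counting was tested on simulated data. Coordinates are 1-based. A strongest peak is that of highest signal in the window. Samples were not compared with each other by a test, since 1 group allows none. The members, the pathway list and CGTAAATC were chosen with earlier results of these data known. Named are all thresholded members, the 25 strongest pooled members, members among the 1000 strongest peaks of any replicate, the uaf- and sfa- genes and the strongest of each prefix, members in no list, and thresholded pathway genes. Other genes named as neighbours, as first genes of runs, or for the remaining members were chosen with their values in view. The alternatives changed the window, the peaks used, the starts and the replicates. Sequences are printed for 6 of the 37 pooled summits in member windows, and the others are not reported here.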

Additional observations from a re-analysis of the deposited data

How the results depend on the processing

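The count of 2 thresholded members was 1 with each summit given to its nearest start (1.89%, all genes 1.39%). It was 2 (3.77%) under the other 4 alternatives, with shares of all genes from 1.31% to 2.18%. The pooled count of 30 members was between 20 and 32 under 6 alternatives. Of these, counting each shared member peak once (28) was chosen after seeing the data. The lowest count came with the window from 500 bp upstream to 100 bp downstream (37.7%, all genes 15.1%). The highest came with peak intervals that overlap the window (60.4%, all genes 25.1%). The pooled count was 9 (17.0%) with pooled peaks at a q of at most 0.05, where 886 of all protein-coding genes were bound (4.43%). It was 17 (32.1%) with peaks that hold a summit of every replicate (all genes 7.48%). It was 16 with summits in no window of a gene outside the members, a rule for which no share of all genes was computed. These 3 alternatives were also chosen after seeing the data. The 5 members with a leading peak in all 3 replicates were 2 with 1000 peaks per replicate (3.77%, all genes 1.72%). They were 9 with 5000 (17.0%, all genes 3.38%) and 26 with every peak (49.1%, all genes 14.9%). With a replicate left out the count was from 5 to 7 (9.43% to 13.2%). The share of all genes was then from 2.67% to 2.94%. Fewer peaks were used in the lower counts by construction. The support of both thresholded member peaks by all replicates was the same under 5 alternatives. No paired analysis was possible because the labels hold 1 group. Peak lists without read counts set the limit here: weak pooled peaks cannot be given an error, and 21 of the 30 pooled members rest on peaks with a q above 0.05.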
